A study of Mus musculus with 6 samples.

Results

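The MMP, ADAM and ADAMTS metalloproteases and their inhibitors, the TIMPs, were taken from a gene count table as every gene whose symbol starts with Mmp or Adam and a digit, starts with Adamts, or is Timp1, Timp2, Timp3 or Timp4. This rule uses names only and no measured value. It found 84 of the 23420 genes in the table: 16 secreted MMPs, 7 membrane-anchored MMPs, 33 ADAMs, 19 ADAMTS genes, 5 ADAMTS-like genes and 4 TIMPs. RNA was sequenced from mouse embryonic fibroblasts of a mixed 129/Sv-C57BL/6 background that carried the adenoviral E1A gene and the oncogene HrasG12V in both groups. The sgp53 group (3 libraries) held cells given the guide sgp53(1) against Trp53, the gene of the tumour suppressor p53; by their labels, lines 1 and 3 were p53 null and p53 in line 2 was functionally inactive. The sgNTC group (3 libraries) held cells of the same 3 lines given a guide with the label NTC, all labelled p53 wild-type. Before harvest by trypsinization all cells had recovered for 24 h at 5% oxygen. No label gives the embryo of a line or says if cells were cloned, lines 2 and 3 share a number in their descriptions, and 1 guide against Trp53 was used, so p-values measure the spread between these libraries.

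MMPs cut collagens and other proteins of the extracellular matrix. They are made as inactive proenzymes, and the TIMPs block their active sites. ADAMs are membrane proteases that release growth factors and receptors from the cell surface, whereas ADAMTS enzymes are secreted and cut proteoglycans and procollagens. ADAMTS-like proteins resemble the ancillary part of ADAMTS enzymes and lack the protease domain. Fibroblasts are a main source of many of these enzymes and of the TIMPs.

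Library totals ran from 27503577 to 35860866 counts, and 1 count was worth 0.0278 to 0.0362 CPM (counts per 1000000 scaled counts). Trp53 had 71.1, 72.0 and 113 CPM in sgp53 lines 1, 2 and 3, against 206, 277 and 253 CPM in sgNTC lines 1, 2 and 3. This is a log2 fold change of -1.52 ± 0.21 (SE; adjusted p = 0.0168, edgeR), and the groups did not overlap. The Trp53 call was lost without the library of sgp53 line 1 (adjusted p = 0.0679), sgp53 line 2 (0.0507) or sgNTC line 3 (0.0721). Cdkn1a, a p53 target that encodes a cell cycle inhibitor, had a log2 fold change of -3.01 ± 0.13 (SE; adjusted p = 0.000509, edgeR). The 10 fibroblast markers summed to 7294 to 10153 CPM in sgp53 libraries and 5665 to 6744 CPM in sgNTC libraries, with 4 of the 10 (Col1a1, Col1a2, Col3a1 and Fbn1) higher. Of 5 tested epithelial markers 1 (Krt18) was lower (adjusted p = 0.0295, edgeR; 0.0534 with the line as a block), and their sum was 116 to 165 CPM in sgp53 libraries and 294 to 689 CPM in sgNTC libraries. Macrophage and leukocyte markers summed to 3.86 to 4.31 CPM in sgp53 libraries and 8.96 to 10.5 CPM in sgNTC libraries. Cd68, the 1 tested marker of this list, was lower and made up most of these sums. Itgam and Lyz2 had few counts, 11 and 7 in sgp53 libraries against 1 and 2 in sgNTC libraries. The defining marker Emr1 was at 0 in all 6 libraries. The ribosomal RNA gene Rn45s stood at 3338 CPM in sgp53 line 3 and at 636 to 864 CPM in the other 5 libraries.

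Of the 84 members, 17 had no count in any library and 43 passed the filter on low counts and were tested. A gene was called where edgeR's adjusted p over all 13044 tested genes was under 0.05. In sgp53 cells 4 members were higher (Adamts5, Adamts1, Adam12 and Adamtsl4) and 1 was lower (Mmp15). The 4 higher members are 9.30% of the 43, beside 2.76% of all tested genes; the 1 lower member is 2.33%, beside 3.69%. In either direction 6.45% of all tested genes were called. Members called were thus more common than the background on the higher side and not on the lower side, as a description of counts this small. With the line as a block 3 members were higher (0.966% of all genes) and 1 was lower (1.42%), because Adamts1 and Adamtsl4 left the calls and Adam19 joined them. DESeq2, which called more genes here, called 12 members (18.2% of all genes in either direction), 11 higher and 1 lower.

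An unadjusted p under 0.05 was reached by 15 members that were higher in sgp53 cells, or 34.9% of the 43, beside 13.9% of all tested genes. It was reached by 1 member that was lower, or 2.33%, beside 15.1%. These counts include the 5 called members; without them 11 were higher and 0 lower. The groups did not overlap, with all 3 sgp53 libraries above all 3 sgNTC libraries, for those same 15 members (34.9%, beside 17.8% of all genes). For 4 members, or 9.30%, all sgp53 libraries lay below (19.0% of all genes). Low members could pass the filter on low counts through the libraries of 1 group, which favours that group in the sign. The 15 hold such members, among them Mmp9 and Adamts2, which passed through the sgp53 libraries. Mmp25, with a negative value, passed through the sgNTC libraries. Positive log2 fold changes were found in 28 members and negative ones in 15; their median was 0.23, beside -0.01 over all tested genes. In bulk RNA, a change in the share of cells that make a transcript cannot be told apart from a change in RNA per cell.

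By subfamily the log2 fold changes were uneven. All 5 tested secreted MMPs had positive values, with a median of 1.69. Of these, edgeR called 0, 4 had an unadjusted p under 0.05 and DESeq2 called 2. Mmp9, with 7, 1 and 8 counts in sgNTC lines 1, 2 and 3, passed the filter on low counts through the sgp53 libraries. The other 11 secreted MMPs were not tested. Among them Mmp3 had 192 counts in sgp53 libraries against 13 in sgNTC libraries, and Mmp10 had 12 against 60. All 3 tested TIMPs were positive too (median 1.33), with 0 called by edgeR, 2 at an unadjusted p under 0.05 and 2 called by DESeq2. The 14 tested ADAMTS genes had a median of 0.48 with 2 called higher, and the 4 tested ADAMTS-like genes a median of 1.08 with 1 called higher. The 11 tested ADAMs centred near 0 (median 0.06) with 1 called higher. The 6 tested membrane-anchored MMPs were the subfamily with a negative median (-0.45), and they hold the member called lower.

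**Figure D1:**
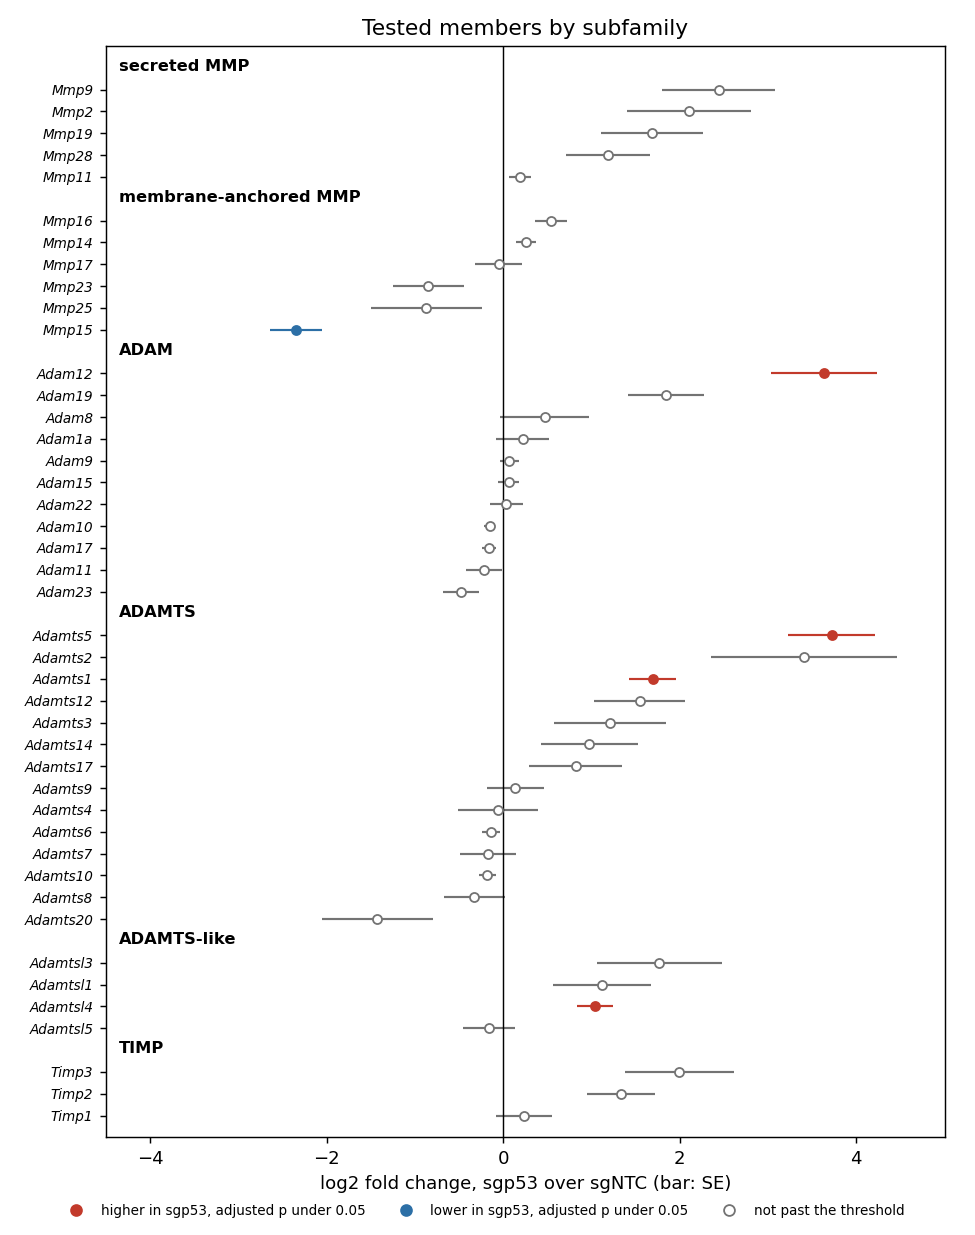
Log2 fold change of sgp53 over sgNTC (x axis; points are edgeR estimates, bars are SE, 3 libraries a group) for the 43 tested members, grouped by subfamily down the page. Filled red points mark the 4 members called higher, the filled blue point marks Mmp15, called lower, and open points did not pass the threshold.

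The ADAMTS proteoglycanases cut aggrecan and versican, the large proteoglycans of cartilage and of loose matrix. Adamts5, the main aggrecanase of mouse cartilage, stood at 11.7, 14.5 and 7.19 CPM in sgp53 lines 1, 2 and 3, against 1.41, 0.435 and 0.643 CPM in sgNTC lines 1, 2 and 3. The lowest sgp53 library lay far above the highest sgNTC library. The log2 fold change was 3.72 ± 0.49 (SE; adjusted p = 0.0152, edgeR). Adamts1, a proteoglycanase first described as an inflammation-associated gene, had 48.7, 54.1 and 34.8 CPM in the sgp53 lines and 17.5, 9.38 and 15.5 CPM in the sgNTC lines. All sgp53 libraries were again above all sgNTC libraries, with a log2 fold change of 1.69 ± 0.27 (SE; adjusted p = 0.0236, edgeR; 0.0671 with the line as a block). The Adamts5 and Adamts1 calls were lost without the sgp53 library of line 1 (adjusted p = 0.0599 and 0.0841) and without the sgNTC library of line 3 (0.0747 and 0.0881), and that of Adamts1 also without the sgp53 library of line 2 (0.0613). Without the sgNTC library of line 1 the log2 fold change of Adamts5 was 4.35 (adjusted p = 0.0128). Over all 20 alternatives the adjusted p ran from 6.55e-13 to 0.161 for Adamts5 and from 2.06e-08 to 0.162 for Adamts1.

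Adamts5 (chr16:85856173-85901828) and Adamts1 (chr16:85793827-85803113) are neighbours on the minus strand of chromosome 16 in mm10, 53059 bases apart. Among protein-coding genes within 1000 kb of the Adamts5 start, App was the other tested gene. Cyyr1 did not pass the filter on low counts, with means of 0.129 CPM in sgp53 libraries and 1.10 CPM in sgNTC libraries. App, which encodes the amyloid precursor protein, had a log2 fold change of 0.60 ± 0.27 (SE; adjusted p = 0.195, edgeR) and was not called. Of the other proteoglycanases tested, Adamts4, Adamts8, Adamts9 and Adamts20 had adjusted p-values from 0.191 to 0.944 and fold changes of either sign, so the higher values stood at 2 of 6 tested proteoglycanases.

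Promoters were available for 53 of the 84 members (28 of the 43 tested), from RefSeq on GRCm38.p6, and Adamts5 and Adam12 were not among them. Both strands of the 250 bases before each start were searched for AP-1 (TGAGTCA), the TATA box (TATAAA), the GC box (GGGCGG), the TEAD motif (GGAATG) and the p53 decamer, which is the repeat unit of a p53 response element. The promoters of the other 3 called members follow, 5′ to 3′ on the strand of the gene, to show which of these letters stand before them; capitals mark the motifs found. They lie at chr16:85803114-85803363 (Adamts1, minus strand), chr3:95687918-95688167 (Adamtsl4, minus strand) and chr8:95352046-95352295 (Mmp15, plus strand).
Adamts1: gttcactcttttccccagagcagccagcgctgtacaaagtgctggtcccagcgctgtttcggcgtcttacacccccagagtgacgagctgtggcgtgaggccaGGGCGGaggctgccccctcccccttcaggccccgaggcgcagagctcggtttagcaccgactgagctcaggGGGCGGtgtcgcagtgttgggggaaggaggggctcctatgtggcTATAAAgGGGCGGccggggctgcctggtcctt
Adamtsl4: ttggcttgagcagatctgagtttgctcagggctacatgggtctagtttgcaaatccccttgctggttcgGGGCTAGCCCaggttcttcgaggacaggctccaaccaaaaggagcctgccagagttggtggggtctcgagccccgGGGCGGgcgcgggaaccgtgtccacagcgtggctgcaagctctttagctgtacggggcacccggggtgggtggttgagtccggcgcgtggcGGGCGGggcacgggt
Mmp15: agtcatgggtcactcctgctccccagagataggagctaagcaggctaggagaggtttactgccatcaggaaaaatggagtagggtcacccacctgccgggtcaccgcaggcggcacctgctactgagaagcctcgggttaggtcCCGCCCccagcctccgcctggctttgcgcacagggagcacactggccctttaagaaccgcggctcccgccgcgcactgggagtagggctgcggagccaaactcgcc
The Adamts1 promoter holds a TATA box directly before a GC box, and further upstream more GC boxes. The Adamtsl4 promoter holds GC boxes and a match to the p53 decamer. The GC box occurs in 32.7% of all 32851 promoters of this length and the p53 decamer in 7.13%; among the 58 promoters of members they occur in 24 and 5. A match of letters is a description of the window and was not tested for binding.

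The procollagen N-proteinases Adamts2, Adamts3 and Adamts14, which trim the amino-terminal ends of fibrillar procollagens, all had positive fold changes and none was called. Adamts2 was low, at 2.70, 1.22 and 6.28 CPM in sgp53 lines 1, 2 and 3, against 0.781, 0.0362 and 0.102 CPM in sgNTC lines 1, 2 and 3. The groups did not overlap, but the sgp53 libraries spread widely, and the log2 fold change of 3.41 ± 1.05 (SE) had an adjusted p of 0.0962 (edgeR). Without the sgNTC library of line 1 it was 5.52 and called (adjusted p = 0.0474), and without the sgp53 library of line 3 it was 2.62 (0.215); over 20 alternatives the adjusted p ran from 0.000513 to 0.400. Adamts14 had 35.5, 18.3 and 27.5 CPM in the sgp53 lines and 24.6, 5.07 and 11.5 CPM in the sgNTC lines, with overlap between sgp53 line 2 and sgNTC line 1 (adjusted p = 0.287, edgeR).

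Among the ADAMTS enzymes that cut cartilage oligomeric matrix protein, Adamts12 had 7.44, 4.75 and 6.95 CPM in the sgp53 lines and 3.16, 0.725 and 2.64 CPM in the sgNTC lines. All sgp53 libraries were higher, and the log2 fold change of 1.55 ± 0.51 (SE) was not called (adjusted p = 0.112, edgeR). Adamts7, its closest relative, had all 3 sgp53 libraries within the range of the sgNTC libraries, which was 8.59 to 20.2 CPM (adjusted p = 0.752, edgeR). Adamts10, which acts on fibrillin microfibrils, had a log2 fold change of -0.18 ± 0.09 (SE; adjusted p = 0.258, edgeR).

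Adamtsl4, a fibrillin-binding protein of the zonule of the eye and of other microfibrils, had 7.07, 7.53 and 8.77 CPM in the sgp53 lines, against 4.45, 2.93 and 3.96 CPM in the sgNTC lines. Every sgp53 library was above every sgNTC library. Its log2 fold change was 1.04 ± 0.20 (SE; adjusted p = 0.0380, edgeR; 0.0801 with the line as a block). The call was lost without the library of sgp53 line 1 (0.102), sgp53 line 2 (0.0762), sgp53 line 3 (0.0926), sgNTC line 2 (0.0751) or sgNTC line 3 (0.122), and over 20 alternatives the adjusted p ran from 0.000543 to 0.259. Adamtsl3 had 1.91, 4.84 and 4.18 CPM in the sgp53 lines and 1.11, 0.217 and 1.86 CPM in the sgNTC lines, with sgp53 line 1 barely above sgNTC line 3 (adjusted p = 0.160, edgeR). Adamtsl1 and Adamtsl5 overlapped between the groups, with log2 fold changes of 1.12 ± 0.56 and -0.16 ± 0.29 (SE; adjusted p = 0.237 and 0.748, edgeR).

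Of the 11 tested ADAMs, Adam12 was the 1 called. Adam12 (meltrin alpha), an active protease linked to muscle, fat and stromal cells, had 21.4, 12.6 and 29.1 CPM in sgp53 lines 1, 2 and 3, against 3.04, 0.616 and 1.35 CPM in sgNTC lines 1, 2 and 3. Every sgp53 library was above every sgNTC library, and the log2 fold change was 3.64 ± 0.60 (SE; adjusted p = 0.0263, edgeR). The Adam12 call was lost without the library of sgp53 line 1 (0.0854), sgp53 line 3 (0.0632) or sgNTC line 3 (0.106), and over 20 alternatives the adjusted p ran from 4.84e-19 to 0.201. Without the sgNTC library of line 1 its log2 fold change was 4.40 (adjusted p = 0.0210). Its relative Adam19 (meltrin beta), which is needed for normal heart development in the mouse, had 46.2, 33.2 and 78.9 CPM in the sgp53 lines and 20.2, 8.04 and 15.7 CPM in the sgNTC lines. With no overlap between the groups, its log2 fold change was 1.84 ± 0.43 (SE), with an adjusted p of 0.0566 (edgeR) and of 0.0478 with the line as a block. Non-coding genes on the opposite strand overlap exons of Adam19, and the strand setting of the counting is not given in the sources used here.

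Adam10 and Adam17, the sheddases of Notch and of many growth factors and cytokines, were abundant and differed little between the groups. Adam10 had 161, 180 and 175 CPM in the sgp53 lines and 186, 204 and 185 CPM in the sgNTC lines. Its groups did not overlap, with sgp53 lower, but the log2 fold change was -0.16 ± 0.07 (SE; adjusted p = 0.188, edgeR). Adam17 had a log2 fold change of -0.16 ± 0.08 (SE; adjusted p = 0.213, edgeR), and is named here after its values were seen. Adam9 and Adam15, widely expressed ADAMs, had 183 ± 9.79 and 126 ± 17.2 CPM in sgp53 libraries and 174 ± 24.1 and 121 ± 12.8 CPM in sgNTC libraries (SD, n = 3 each), with adjusted p-values of 0.701 and 0.767 (edgeR). Adam8, a leukocyte-associated ADAM, stood at 8.67 CPM in sgp53 line 3 and at 2.49 to 4.38 CPM in the other 5 libraries. Adam23, which lacks protease activity, had 3.41, 2.83 and 4.14 CPM in the sgp53 lines and 4.30, 5.04 and 5.11 CPM in the sgNTC lines (adjusted p = 0.178, edgeR). Of 21 ADAMs mainly known from the germ line, 11 had no count and 1, Adam1a, was tested. Exons of Adam1a overlap Gm42878 and Mapkapk5 on the same strand, so its counts are uncertain. Exons of Adam8, Adam15 and Adam17 overlap genes on the opposite strand.

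Among the membrane-anchored MMPs, Mmp15 (MT2-MMP, a transmembrane enzyme of epithelia and other tissues) was the member called lower. It had 0.717, 0.584 and 0.562 CPM in sgp53 lines 1, 2 and 3, against 3.79, 3.51 and 2.24 CPM in sgNTC lines 1, 2 and 3. The groups were far apart, at a low level in both. The log2 fold change was -2.35 ± 0.29 (SE; adjusted p = 0.0128, edgeR). Its call was lost without the sgp53 library of line 1 (0.0547), and over 20 alternatives the adjusted p ran from 8.59e-07 to 0.147. The epithelial marker sum given above was lower in sgp53 libraries as well, and Krt18 made up most of it in sgNTC libraries. Epcam was also lower without overlap but not called, whereas Cdh1, Krt8 and Krt19 overlapped between the groups. The part of these markers in the Mmp15 value was not tested.

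The collagenase at the cell surface, Mmp14 (MT1-MMP), which also activates the proenzyme of MMP2, had 118, 123 and 141 CPM in the sgp53 lines and 95.1, 122 and 102 CPM in the sgNTC lines, with a small overlap between sgp53 line 1 and sgNTC line 2. Its log2 fold change of 0.25 ± 0.11 (SE) was not called (adjusted p = 0.199, edgeR). Mmp16, its close relative, had 10.8, 11.2 and 12.7 CPM in the sgp53 lines and at most 9.74 CPM in the sgNTC lines, which did not overlap (adjusted p = 0.114, edgeR). Mmp23 and Mmp25 had negative fold changes of -0.85 ± 0.40 and -0.87 ± 0.62 on the log2 scale (SE; adjusted p = 0.220 and 0.395, edgeR), and Mmp25 was below 0.5 CPM in every library.

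The gelatinases MMP2 and MMP9 cut denatured collagen and collagen of basement membranes. Mmp2 had 36.9, 18.7 and 27.1 CPM in the sgp53 lines and 9.59, 1.09 and 8.47 CPM in the sgNTC lines. All sgp53 libraries were higher; the log2 fold change of 2.11 ± 0.70 (SE) was not called (adjusted p = 0.114, edgeR), and sgNTC line 2 stood well below the other sgNTC lines. Mmp9 was low, with 0.580, 0.889 and 1.44 CPM in the sgp53 lines and 0.210, 0.0362 and 0.271 CPM in the sgNTC lines. It did not overlap between the groups, with a log2 fold change of 2.44 ± 0.64 (SE; adjusted p = 0.0701, edgeR). Mmp19 had 2.94, 2.11 and 8.98 CPM in the sgp53 lines and 1.68, 1.09 and 1.56 CPM in the sgNTC lines, so sgp53 line 3 stood apart (adjusted p = 0.119, edgeR). Mmp28 (epilysin) had 1.71, 1.22 and 1.72 CPM in the sgp53 lines and 1.11, 0.290 and 0.610 CPM in the sgNTC lines (adjusted p = 0.161, edgeR). Mmp11 (stromelysin 3), in contrast, was at 18.1 ± 2.01 CPM in sgp53 libraries and 15.9 ± 1.44 CPM in sgNTC libraries (SD, n = 3 each; adjusted p = 0.362, edgeR). Exons of Mmp11, Mmp19 and Mmp28 overlap genes on the opposite strand.

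A cluster of MMP genes on chromosome 9, with the collagenases and the stromelysins Mmp3 and Mmp10 among them, gave few counts apart from Mmp3 in 1 library. The cluster holds 10 members (Mmp13, Mmp12, Mmp1b, Mmp3, Mmp1a, Mmp10, Mmp8, Mmp27, Mmp20 and Mmp7) within 427 kb (chr9:7272514-7699585, mm10). None passed the filter on low counts, and 4 had no count. Together they had 223 counts in the sgp53 libraries and 83 in the sgNTC libraries. Mmp3, a broad matrix protease and activator of other MMPs, had 18, 6 and 168 counts in sgp53 lines 1, 2 and 3, against 1, 3 and 9 in sgNTC lines 1, 2 and 3. Mmp10 went the other way, with 2, 3 and 7 counts in the sgp53 lines and 17, 4 and 39 in the sgNTC lines. The sgp53 line 3 library made up most of the Mmp3 counts, at 5.90 CPM, and with no filter on low counts neither gene was called (adjusted p = 0.154 for Mmp3 and 0.172 for Mmp10, edgeR). Mmp1a and Mmp1b are related genes with at most 2 counts in any library, so their levels are uncertain.

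AP-1 and TATA box letters were frequent in the promoters of the cluster. Of its 10 genes, 7 hold an AP-1 motif (TGAGTCA) in the 250 bases before a start, 7 hold a TATA box and 0 hold a GC box. AP-1 occurs in 4.46% of all promoters of this length and the TATA box in 12.4%, and among the 28 tested members with a promoter AP-1 was found at 1, Adam19. For the 7 genes with AP-1, the 100 bases before the start that has it are given, because that motif marks most of the cluster. Capitals mark the motifs found. Mmp12 and Mmp7 each have another listed start, with windows at chr9:7344147-7344396 and chr9:7692091-7692340 that hold no AP-1. The Mmp12 start used here lies inside the gene. They are at chr9:7272414-7272513 (Mmp13), chr9:7347274-7347373 (Mmp12), chr9:7388027-7388126 (Mmp1b), chr9:7445722-7445821 (Mmp3), chr9:7464041-7464140 (Mmp1a), chr9:7502242-7502341 (Mmp10) and chr9:7691990-7692089 (Mmp7), all on the plus strand except Mmp1b, in GRCm38.p6 (RefSeq).
Mmp13: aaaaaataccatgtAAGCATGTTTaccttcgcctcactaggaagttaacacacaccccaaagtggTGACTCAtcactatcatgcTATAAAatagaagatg
Mmp12: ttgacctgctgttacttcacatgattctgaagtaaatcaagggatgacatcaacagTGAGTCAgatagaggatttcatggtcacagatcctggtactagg
Mmp1b: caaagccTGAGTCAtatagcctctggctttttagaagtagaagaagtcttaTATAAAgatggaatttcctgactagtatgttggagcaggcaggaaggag
Mmp3: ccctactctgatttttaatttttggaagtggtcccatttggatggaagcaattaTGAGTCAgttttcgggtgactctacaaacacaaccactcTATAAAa
Mmp1a: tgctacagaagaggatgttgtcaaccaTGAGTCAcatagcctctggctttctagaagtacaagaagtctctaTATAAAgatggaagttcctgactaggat
Mmp10: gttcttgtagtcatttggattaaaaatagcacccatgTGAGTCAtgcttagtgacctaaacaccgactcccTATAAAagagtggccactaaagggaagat
Mmp7: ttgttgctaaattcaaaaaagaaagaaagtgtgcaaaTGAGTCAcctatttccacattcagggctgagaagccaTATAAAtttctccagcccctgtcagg
The GC content of the cluster promoters ran from 37.2% to 53.2%, beside a median of 64.4% for tested members and 52.4% for all promoters. The match to AP-1 letters says nothing of whether a factor was bound in these cells.

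By their sum the TIMPs were the most abundant part of the system, and most of that sum was Timp1. Per kilobase of exon, Timp1 stood at 403 ± 50.2 CPM in sgp53 libraries and 343 ± 141 CPM in sgNTC libraries (SD, n = 3 each), the highest of all members in both groups. Timp2 followed in sgp53 libraries at 70.1 ± 26.5 CPM per kilobase, and it was at 27.8 ± 11.0 in sgNTC libraries, below Adam9 and Adam10. Timp3 was at 14.3 ± 1.49 CPM per kilobase in sgp53 libraries and 3.58 ± 3.37 in sgNTC libraries. Mmp14 was at 21.3 ± 2.01 CPM per kilobase in sgp53 libraries, above every other MMP, and at 17.9 ± 2.39 in sgNTC libraries. Mmp23 was at 9.78 ± 5.08 CPM per kilobase in sgp53 libraries and 17.7 ± 5.52 in sgNTC libraries, where it did not differ from Mmp14 beyond the spread. Every sgNTC library of Timp2, at 33.8, 15.1 and 34.6 CPM per kilobase in lines 1, 2 and 3, lay below every sgNTC library of Adam9 and Adam10.

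**Figure D2:**
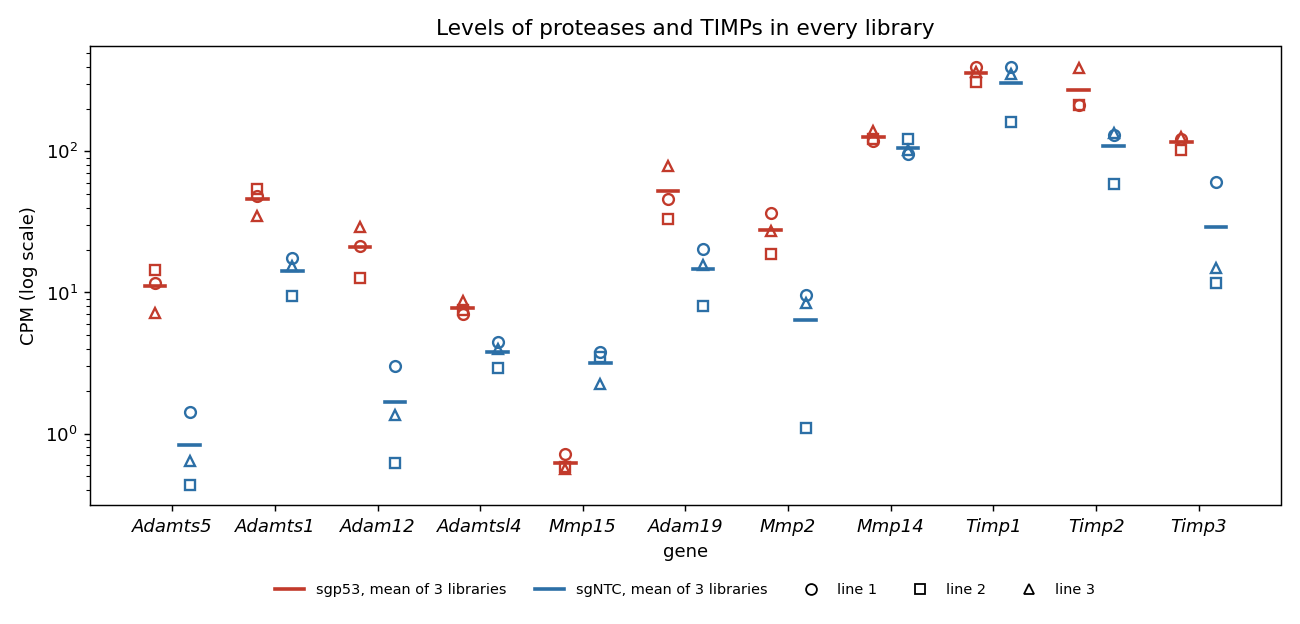
CPM (y axis, log scale, not divided by length) of 11 members (x axis) in each library; red is sgp53, left of sgNTC in blue, bars are means of 3 libraries and symbols mark the lines. Adamts5, Adam12 and Mmp15 show the widest gaps between groups among the called members, while Timp1 and Mmp14 overlap.

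In CPM, Timp2, which inhibits MMPs and also takes part in MMP2 activation with MT1-MMP, had 213, 214 and 392 in sgp53 lines 1, 2 and 3, against 132, 58.9 and 135 in sgNTC lines 1, 2 and 3. The groups did not overlap, and the log2 fold change of 1.33 ± 0.38 (SE) had an adjusted p of 0.0847 (edgeR). Timp3, a matrix-bound inhibitor that also blocks ADAM17 and aggrecanases, had 122, 103 and 126 CPM in the sgp53 lines and 60.8, 11.7 and 14.9 CPM in the sgNTC lines. Its sgp53 libraries were alike while sgNTC line 1 stood far above the other sgNTC lines; the log2 fold change was 2.00 ± 0.62 (SE; adjusted p = 0.0964, edgeR). Without the sgNTC library of line 1 it was 3.13 and called (adjusted p = 0.00218), and without line 1 altogether it was 3.10 (0.0230); over 20 alternatives the adjusted p ran from 0.00218 to 0.369. Exons of Timp3 overlap Syn3 on the opposite strand. Timp1 had 398, 310 and 365 CPM in the sgp53 lines and 397, 162 and 354 CPM in the sgNTC lines, so the groups were alike apart from sgNTC line 2 (log2 fold change 0.23 ± 0.32, SE; adjusted p = 0.661, edgeR). Timp4 had 1 count in all 6 libraries together.

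Summed over the subfamily, TIMP levels were 518, 416 and 527 CPM per kilobase in the sgp53 lines and 488, 199 and 435 in the sgNTC lines. Timp1 made up most of the TIMP sum in every library. The sums of MMPs were 46.6, 52.2 and 54.0 CPM per kilobase in the sgp53 lines and 39.0, 50.6 and 48.9 in the sgNTC lines, so both sums overlapped between the groups. The ratio of TIMP to MMP levels was 11.1, 7.98 and 9.75 in the sgp53 lines, against 12.5, 3.93 and 8.90 in the sgNTC lines, which overlapped as well. Secreted MMPs alone summed to 19.2, 14.2 and 20.9 CPM per kilobase in the sgp53 lines and 9.54, 7.19 and 9.51 in the sgNTC lines, with no overlap. ADAMTS genes summed to 28.7, 24.7 and 24.3 in the sgp53 lines and 20.3, 13.6 and 16.1 in the sgNTC lines, also with no overlap, whereas ADAM sums overlapped. Adamts1, called above, supplied 9.18, 10.2 and 6.56 of the ADAMTS sums in the sgp53 lines, and 3.31, 1.77 and 2.93 in the sgNTC lines. Mmp2 supplied 10.9, 5.56 and 8.05 of the secreted MMP sums in the sgp53 lines, and 2.84, 0.322 and 2.51 in the sgNTC lines. The sums thus need not reflect a subfamily at large. With 3 libraries a group the smallest p of a 2-sided exact permutation test is 0.1, so these sums were not tested.

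Within lines the members' median log2 difference, sgp53 minus sgNTC, was 0.20 in line 1, 0.48 in line 2 and 0.66 in line 3, beside -0.01, 0.00 and -0.01 over all tested genes. Adamts5, Adamts1, Adam12, Adamtsl4, Adam19, Timp2 and Timp3 were higher in sgp53 cells of every line, and Mmp15 was lower in every line. The groups did not overlap for these genes, which fixes the sign within each line, so this is no separate support. Single libraries stood out among the members' values. The sgNTC line 2 library held the lowest value of the 6 libraries in 21 of the 43 tested members (48.8%, beside 23.7% of all tested genes). The sgp53 line 3 library, with the high Rn45s level, held the highest value in 16 (37.2%, beside 23.5%), and the part of either library's RNA composition in the members' values was not tested. The fibroblast marker sums given above were higher in sgp53 libraries alongside the matrix-related members. Fn1 and Vim made up most of these sums, and neither was called. Fn1, Pdgfrb and S100a4 were higher without overlap but not called, Pdgfra and Thy1 overlapped, and Vim was lower in sgp53 cells of every line. The part of the fibroblast markers in the members' values was not tested.

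**Figure D3:**
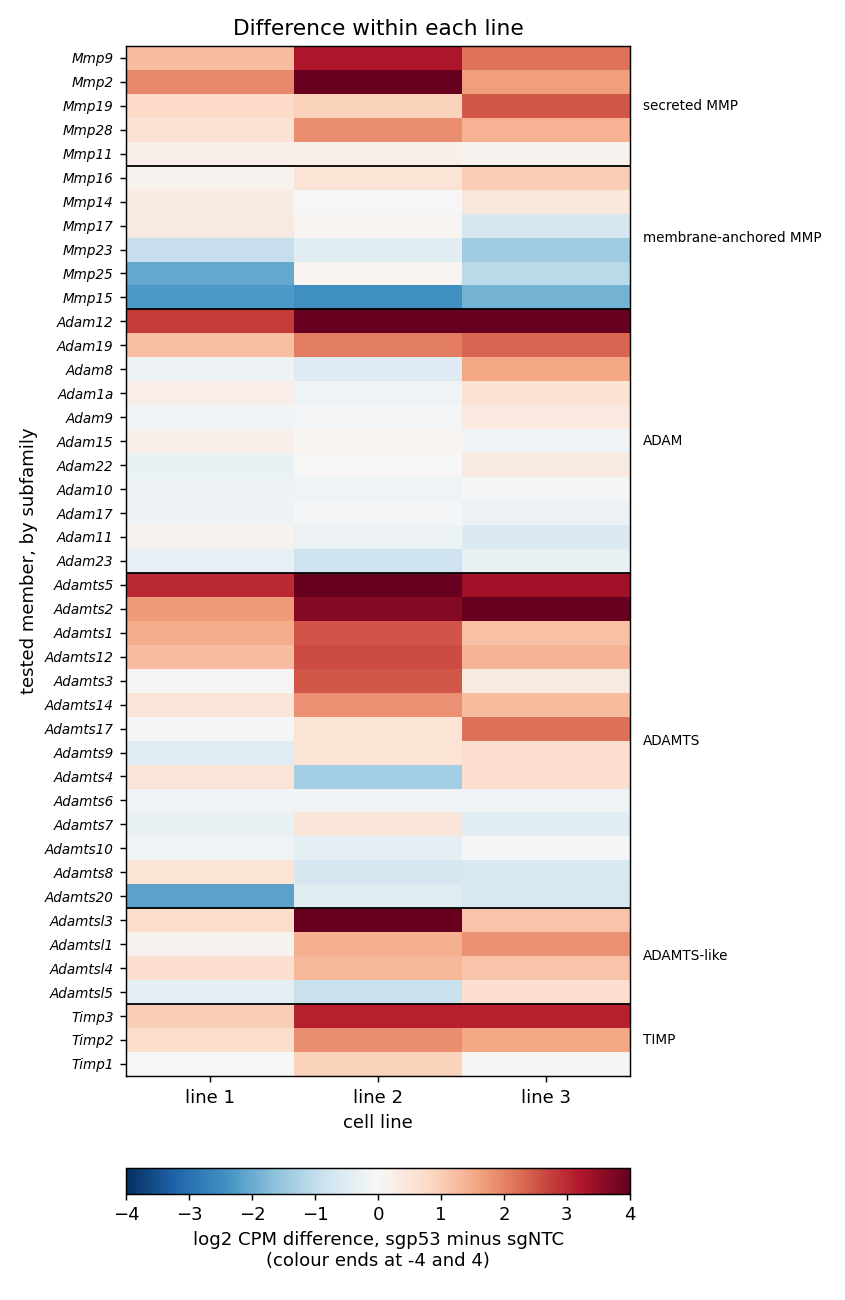
Log2 difference in CPM, sgp53 minus sgNTC, of the 43 tested members (rows, by subfamily) in each of the 3 cell lines (columns); red is higher in sgp53, blue is lower, and the colour ends at -4 and 4. Adamts5 and Adam12 are strongly red and Mmp15 blue in all 3 lines, whereas several members, among them Adam8 and Adamts4, change sign between lines.

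The enzymes act through activators, partners and substrates. These were listed with an inducer, a membrane inhibitor, a clearance receptor and the astacins, which are related proteases. Of the 38 listed genes 29 were tested. In sgp53 cells 1 of them, an astacin, was higher and 5 were lower (2.76% and 3.69% of all tested genes), with a median log2 fold change of -0.02. Ligands of the EGF receptor that ADAMs release from the membrane made up most of the lower ones, at 3 of 10 tested shed proteins. Tgfa, transforming growth factor alpha, had 10.9, 15.3 and 12.2 CPM in sgp53 lines 1, 2 and 3, against 38.7, 44.1 and 36.7 CPM in sgNTC lines 1, 2 and 3. Areg, amphiregulin, had 7.75, 4.73 and 9.69 CPM in the sgp53 lines and 29.6, 38.3 and 36.4 CPM in the sgNTC lines. Btc, betacellulin, had 6.83, 7.31 and 6.81 CPM in the sgp53 lines and 23.1, 13.3 and 25.5 CPM in the sgNTC lines. None of these 3 ligands overlapped between the groups, and the log2 fold changes were -1.64 ± 0.15, -2.24 ± 0.27 and -1.56 ± 0.25 (SE; adjusted p = 0.00501, 0.0111 and 0.0239, edgeR). With the line as a block Btc was not called (adjusted p = 0.0659). The Areg call was lost without the sgp53 library of line 1 (0.0563) or the sgNTC library of line 3 (0.0557), and that of Btc without any sgp53 library (0.0647 to 0.0907) or the sgNTC library of line 3 (0.0820). The other tested shed proteins were not called. Among them the ligand Nrg1 went the other way, higher in sgp53 cells without overlap, with a log2 fold change of 2.14 ± 0.61 (SE, adjusted p = 0.0831, edgeR). Hbegf and Notch1 were lower without overlap. Cd44 and Ereg, another ligand of the EGF receptor, overlapped between the groups, with log2 fold changes of -0.01 ± 0.18 and 0.16 ± 0.49 (SE).

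Among the membrane partners of ADAM10 and ADAM17, Rhbdf2 (iRhom2, which brings ADAM17 to the cell surface) was the 1 called gene of 8 tested. Rhbdf2 had 17.3, 28.2 and 16.9 CPM in the sgp53 lines and 48.5, 44.8 and 56.9 CPM in the sgNTC lines, with a log2 fold change of -1.26 ± 0.22 (SE; adjusted p = 0.0286, edgeR; 0.0711 with the line as a block). The groups did not overlap, and the call was lost when any of 5 libraries was left out, all except that of sgp53 line 2 (adjusted p = 0.0515 to 0.104). Of the 4 proprotein convertases, which remove the prodomains of many of these enzymes, Pcsk7 was lower by a small margin. Its log2 fold change was -0.32 ± 0.07 (SE), with an adjusted p of 0.0486 (edgeR) and of 0.0896 with the line as a block. The Pcsk7 call was lost without any single library (0.0700 to 0.139). Tll1, an astacin that cuts procollagens at the carboxy-terminal end, had 19.7, 13.7 and 10.9 CPM in the sgp53 lines and 5.74, 4.67 and 3.22 CPM in the sgNTC lines. It was the 1 listed gene called higher, with a log2 fold change of 1.70 ± 0.30 (SE; adjusted p = 0.0294, edgeR), and its call was lost without the library of sgp53 line 1 (0.0867), sgp53 line 2 (0.0662), sgNTC line 2 (0.0825) or sgNTC line 3 (0.0957). The clearance receptor Lrp1 and the ADAMTS substrate Vcan (versican) were not called, with log2 fold changes of 0.76 ± 0.37 and 0.33 ± 0.31 (SE; adjusted p = 0.229 and 0.513, edgeR).

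**Figure D4:**
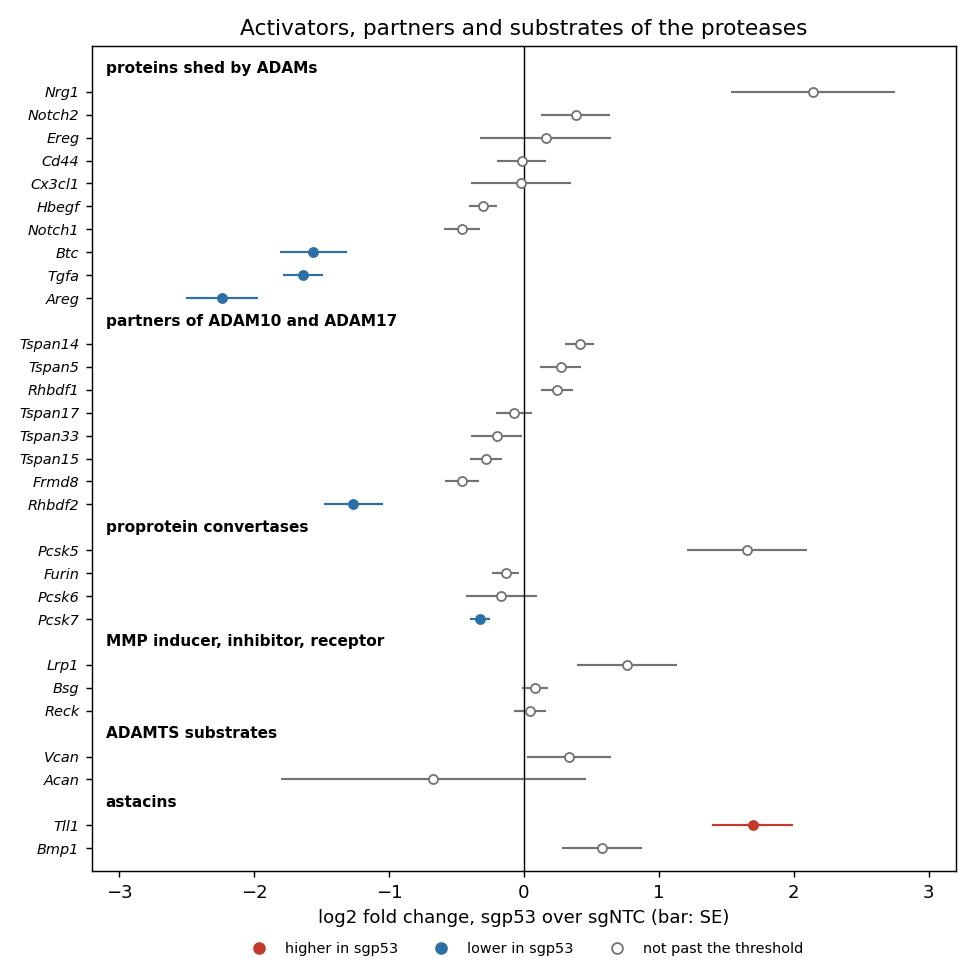
Log2 fold change of sgp53 over sgNTC (x axis, points are edgeR estimates, bars are SE, 3 libraries a group) for 29 tested genes, grouped by role down the page. They are activators, partners and substrates of the proteases, an MMP inducer, an inhibitor, a clearance receptor and the related astacin proteases, to which Tll1 belongs. Tll1 is the red point called higher; Areg, Tgfa, Btc, Rhbdf2 and Pcsk7 are the blue points called lower.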

How the data were processed

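The authors deposited a table of raw counts per gene for all 6 libraries. Tools named, with no role given, are CASAVA 1.8, STAR and DESeq2, and the build is mm10, per the submitters' processing notes. Which counter was used, and whether by strand, was not given in the sources used here. The labels' protocols name a TruSeq RNA kit and a TruSeq Stranded RNA kit. Counts were tested in R 4.3.3 with edgeR 4.0.16 (TMM scaling, filterByExpr, quasi-likelihood F test, Benjamini-Hochberg adjustment over 13044 genes, threshold 0.05), over the 3 sgp53 and 3 sgNTC libraries without a block. CPM values use TMM-scaled totals; levels per kilobase use GENCODE M21 exon lengths. The steps were tested on simulated data.

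Libraries were paired by line, since each line appears in both groups in the labels; the deviations of paired libraries correlated at 0.09, 0.00 and -0.03. No replicates looked like 1 library deposited more than once. Alternatives were RLE or upper-quartile scaling, no filter, DESeq2 1.42.0, limma 3.58.1 (voom), the line as a block (edgeR and DESeq2), each library or line left out, and Rn45s left out. The members and lists were chosen with earlier results of these data known. Named members are those called with or without the block, all TIMPs, uncalled members of highest CPM (up to 3) or largest fold change (2) per subfamily, and those with an unadjusted p under 0.05; of the other listed genes, the called ones, and, for a list with none, the most abundant. Protein sequences are not used here.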

Additional observations from a re-analysis of the deposited data

How the results depend on the processing

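Over all tested genes the count of calls was 841; DESeq2 gave 2367, the line as a replicate block 311 and DESeq2 with that block 1652, and leaving out a library or a line gave 19 (without line 3) to 700 (without the sgNTC library of line 1). Members called higher numbered 11 with DESeq2 and 11 with DESeq2 and the replicate block, and 0 to 6 with a library or line left out. Members called lower numbered 2 with DESeq2 and the replicate block, and 0 to 1 with a library or line left out. With the replicate block and a whole line left out, all-gene calls were 126 without line 1, 0 without line 2 and 13 without line 3; members called higher were 4 without line 1, 0 without line 2 and 0 without line 3, and members called lower were 0 without any line. Fewer libraries leave fewer residual degrees of freedom in these fits. The calls of Mmp15, Adamts5, Adam12, Adamts1 and Adamtsl4 held in 13, 12, 12, 10 and 8 of 20 alternatives, that of Trp53 in 11, and each kept its direction in all 20. RLE and upper-quartile scaling, no filter, voom and leaving out Rn45s kept the 5 members' calls.

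Among uncalled genes, log2 fold changes crossed 0 for a few, and the cause was not tested. With a library or line left out, Adam15 ran from -0.0526 to 0.14, Adam8 from -0.39 to 0.95, Adam9 from -0.0780 to 0.16, Adamts7 from -0.47 to 0.0460, Adamtsl5 from -0.64 to 0.21, Timp1 from -0.0712 to 0.47 and Vcan from -0.17 to 0.57. With the replicate block and a line left out, Adam15 was -0.0126 (line 1), Adam8 -0.37, Adam9 -0.0773 and Vcan -0.17 (line 3), Adamts7 0.0176 (line 1) and 0.0862 (line 3), and Adamtsl5 0.16 (line 2). In edgeR, pairing by line changed no call of a named member or listed gene other than those given with the results; DESeq2 with the replicate block also called Adamts14 (adjusted p = 0.00119), Mmp2 (1.16e-06) and Mmp23 (0.00146), which DESeq2 without it did not, and no longer called Mmp9, Mmp19 and Pcsk7. Depth limits the 41 untested members, of which 18 had 1 to 9 counts at most and 6 had 10 or more in some library.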
